A study of Mus musculus with 38 samples.

Results

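The 10 genes described here encode signals that somatic cells of the testis send to spermatogonia and the receptors through which germ cells read them: the ligands Gdnf, Kitl, Csf1, Cxcl12 and Fgf2, the receptors Gfra1, Ret, Kit and Cxcr4, and Etv5, a transcription factor that responds to GDNF and FGF signals. They were chosen by name as an established set, with earlier results of these data known. Every probe set that the array annotation assigns to one of them alone was taken, which gave 24 of the 45101 probe sets and 10 of 18019 genes. None of the 10 genes lies on the X chromosome. For a gene with several probe sets the one with the strongest signal over all arrays stands for it, and the others are given where they differ.

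Total testis RNA of 38 prepubertal males was measured on 1 array per male. B6-ChrXMSM males carry nearly the whole X chromosome of MSM, a strain derived from M. m. molossinus, on the C57BL/6J (B6) background, and are sterile as adults. B6-ChrXTMSM males carry only the distal part of that X chromosome and are subfertile, and XS39-tel males are a congenic strain with a more distal MSM segment. The (B6-ChrXTMSM x B6-Chr1MSM)F1 males, called F1 here, carry the MSM distal X chromosome together with 1 MSM copy of chromosome 1, and MSM and B6 males are the parental strains. No male received a treatment. At 7 days post partum (dpp) there were 3 males per strain and 8 F1 males, and at 5 dpp 3 males per strain including XS39-tel, which was sampled at that age only. Levels are log2 signals, and a probe set entered a test where the mean signal of at least 1 of the compared groups was above 10, which is 3.32 on the log2 scale. A gene was called higher or lower where limma gave an adjusted p under 0.05 over all probe sets tested and the change was at least 1.5-fold, which is 0.58 on the log2 scale. All comparisons with B6 at 1 age share the same 3 B6 arrays, so they are not independent of each other.

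Spermatogonial stem cells are kept by GDNF from Sertoli and peritubular cells, which binds the co-receptor GFRA1 and signals through the tyrosine kinase RET. As spermatogonia start to differentiate they lose GFRA1 and RET and gain KIT, and KIT ligand from Sertoli cells then supports their survival and division. CXCL12, acting on CXCR4, holds germ cells near its source, CSF1 acts on cells that bear CSF1R, and FGF2 adds to the maintenance of stem cells. The ages sampled here fall in the first wave of spermatogenesis, when KIT-positive spermatogonia increase in number.

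The series as a whole showed array medians between 2.63 and 2.71, and arrays of 1 group correlated at r = 0.988 to 0.9974. Of the marker lists, the 5 germ cell genes (Ddx4, Dazl, Mael, Tdrd1 and Tex101) had a per-array mean of 5.16 to 5.58 in B6-ChrXMSM testes, 5.23 to 5.99 in B6-ChrXTMSM testes, 5.86 to 6.94 in F1 testes, 6.96 to 7.13 in MSM testes and 6.72 to 6.88 in B6 testes at 7 dpp. The 8 Sertoli genes averaged 6.67 to 7.32 over all arrays, so the labelled tissue showed its markers in every group, while the erythroid genes Alas2 and Hba-a1 and the epididymal genes Lcn5, Lcn8 and Rnase10 stayed under the filter in every group. The adipose list ranged from 0.87 to 5.84 between arrays, and its part in the values below was not tested. The Gapdh control probe sets gave a log2 difference between the 3′ and 5′ transcript ends of 0.45 to 0.64 in MSM males of 5 dpp. All other arrays lay between -0.15 and 0.16. The study states that RNA quality was checked and that only samples past a cut-off of RNA integrity number were used. The part of RNA integrity in the MSM values of 5 dpp was not tested.

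Kit, the receptor of KIT ligand, had the largest difference from B6 of the tested genes in both X chromosome strains at 7 dpp. B6-ChrXMSM males had log2 signals of 5.06, 5.03 and 5.03 and B6-ChrXTMSM males 5.40, 5.49 and 4.96, against 6.47, 6.50 and 6.34 in B6 males. No male of either strain reached the lowest B6 male. Kit was 2.64-fold lower in B6-ChrXMSM testes (log2 difference -1.40, SE 0.06, adjusted p = 8.86e-06, 95% interval -1.54 to -1.26) and 2.22-fold lower in B6-ChrXTMSM testes (-1.15, SE 0.13, adjusted p = 0.000619). Both calls held without any 1 array. In RNA of a whole testis, fewer cells of a type and less RNA per cell cannot be told apart. In the same males all 5 germ cell markers and all 6 markers of differentiating spermatogonia (Stra8, Sohlh1, Sohlh2, Dmrtb1, Rhox13 and Dnmt3b) were lower than in B6, with median log2 differences of -1.38 and -1.95 in B6-ChrXMSM testes and -1.22 and -1.84 in B6-ChrXTMSM testes. The part of cell numbers in the Kit difference was not tested.

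The promoters of Kit, Gdnf and Cxcl12 are shown because Kit and Cxcl12 were called in both X chromosome strains at 7 dpp and Gdnf passed the adjusted p there without reaching 1.5-fold, with Kit lower and both ligands above B6. Each is the RefSeq window (GRCm38.p6) of 300 bases, 250 before and 50 after an annotated start site, written 5′ to 3′ on the gene's strand, which is the plus strand for all 3, with the E-box motif CANNTG in capitals. The windows are chr5:75574737-75575036 for Kit, chr15:7809798-7810097 for Gdnf and chr6:117168285-117168584 for Cxcl12. Kit and Gdnf each have a second annotated start downstream.
Kit: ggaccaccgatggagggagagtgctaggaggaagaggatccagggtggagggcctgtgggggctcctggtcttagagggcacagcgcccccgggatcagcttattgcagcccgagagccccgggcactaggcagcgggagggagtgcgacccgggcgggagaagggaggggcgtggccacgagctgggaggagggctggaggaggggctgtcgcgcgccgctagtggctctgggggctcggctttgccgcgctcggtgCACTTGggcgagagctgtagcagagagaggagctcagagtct
Gdnf: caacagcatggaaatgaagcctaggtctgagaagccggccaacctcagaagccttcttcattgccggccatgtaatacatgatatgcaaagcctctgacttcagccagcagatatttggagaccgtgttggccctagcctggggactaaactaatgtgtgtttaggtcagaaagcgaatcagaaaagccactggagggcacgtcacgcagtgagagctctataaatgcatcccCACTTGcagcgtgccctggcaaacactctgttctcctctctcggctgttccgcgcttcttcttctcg
Cxcl12: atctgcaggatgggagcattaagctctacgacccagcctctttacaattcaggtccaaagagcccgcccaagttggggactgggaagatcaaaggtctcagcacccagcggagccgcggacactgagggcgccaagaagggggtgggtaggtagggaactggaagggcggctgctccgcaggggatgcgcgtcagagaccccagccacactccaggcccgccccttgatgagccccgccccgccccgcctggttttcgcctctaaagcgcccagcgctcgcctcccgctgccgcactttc
The Kit window held 1 E-box, CACTTG, 8 bases after its start site and 4 bases after the second Kit start. The Gdnf window held the same 6 letters 17 bases before its start site. The Cxcl12 window held no E-box and 5 copies of the GC box GGGCGG, of which the Kit window held 1 and the Gdnf window 0. CANNTG occurs in 72.3% of 32851 RefSeq mouse promoter windows of this length and GGGCGG in 35.7%, both strands searched, so a match in a window is common. The ETS core CCGGAA, found in 14.9% of windows, was in the Gfra1 and Kitl windows and in none of these 3.

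The strains differed in Kit earlier as well. At 5 dpp Kit stood at 4.52, 4.80 and 4.27 in B6-ChrXMSM males against 5.25, 5.27 and 5.42 in B6 males, again without overlap, and was 1.72-fold lower (-0.78, SE 0.13, adjusted p = 0.0208). This call was lost without B6 replicate 1, 2 or 3 (adjusted p = 0.0748, 0.0715 and 0.0699) or without B6-ChrXMSM replicate 1 (adjusted p = 0.0518), at differences of -0.82 to -0.73. In B6-ChrXTMSM males of 5 dpp Kit stood at 5.20, 5.35 and 5.13, overlapping the B6 values, with a difference of -0.09 (SE 0.08, adjusted p = 0.538). At 5 dpp 4 of 4 tested germ cell markers were lower in B6-ChrXMSM testes (median -1.70), 0 of 4 in B6-ChrXTMSM testes (median -0.20), 0 of 4 in XS39-tel testes (median -0.80) and 3 of 4 in F1 testes (median -0.76). In XS39-tel and F1 testes the Kit mean was not below that of B6 (differences 0.17 and 0.11, neither called). Whether Kit and these markers differ in how they change between strains was not tested.

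**Figure D1:**
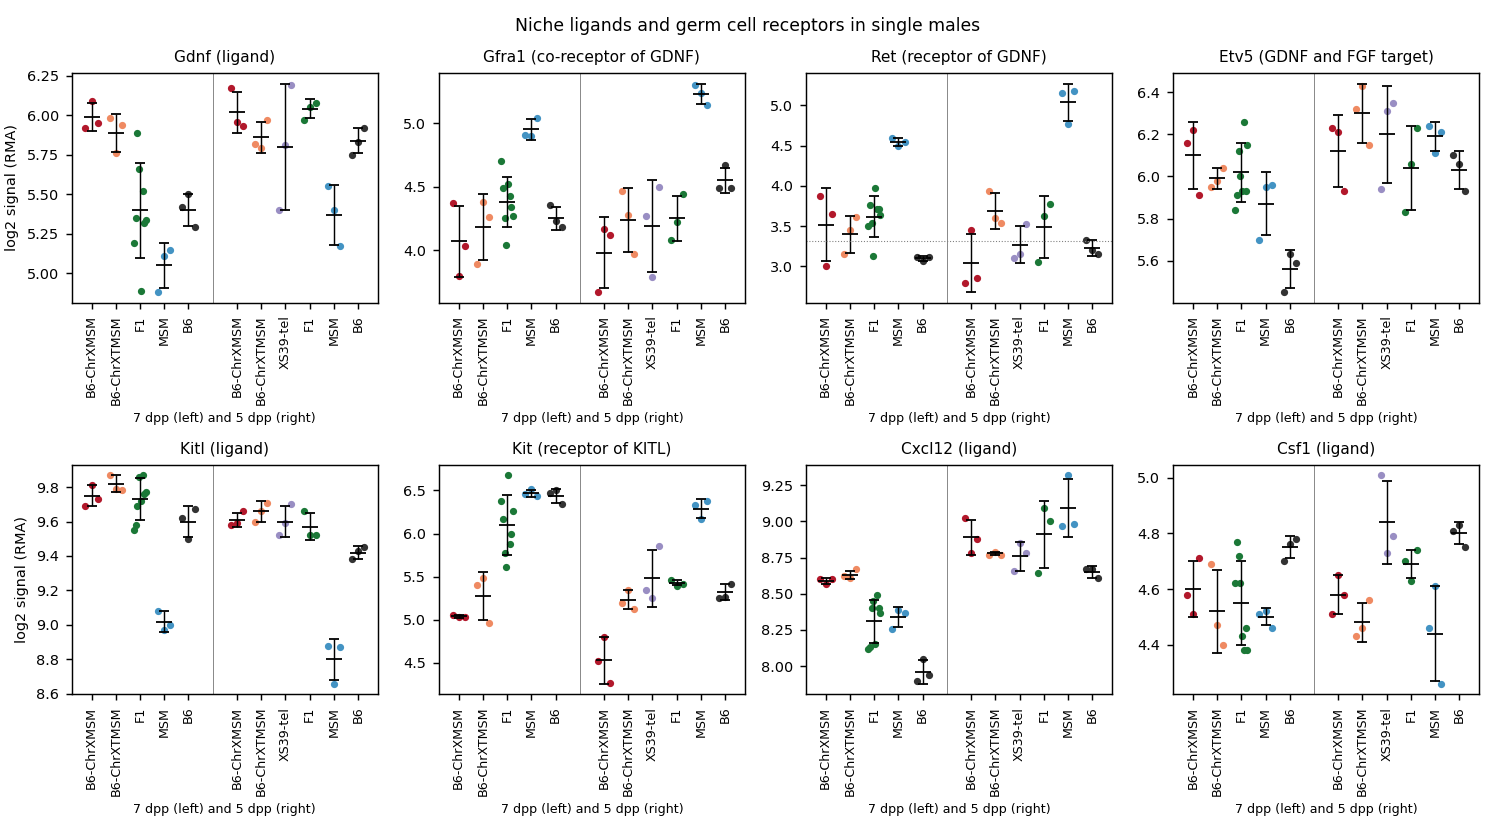
Log2 signal of Gdnf, Gfra1, Ret, Etv5, Kitl, Kit, Cxcl12 and Csf1 in each male, with 7 dpp groups left and 5 dpp groups right of the vertical line. Points are males, bars are the mean ± SD, and a dotted line marks the expression filter where it lies within range. Kit of B6-ChrXMSM and B6-ChrXTMSM males lies below all B6 males at 7 dpp, while Gdnf, Etv5 and Cxcl12 of the same males lie above them.

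Kit also changed with age in unlike ways. B6 males rose to 6.47, 6.50 and 6.34 at 7 dpp, against 5.25, 5.27 and 5.42 at 5 dpp, a 2.18-fold difference (1.12, SE 0.07, adjusted p = 4.43e-05). B6-ChrXTMSM males had 5.40, 5.49 and 4.96 at 7 dpp and 5.20, 5.35 and 5.13 at 5 dpp, and the difference was 0.06 (SE 0.14, adjusted p = 0.819). The age difference of B6-ChrXTMSM males was smaller than that of B6 males by 1.07 on the log2 scale (interaction -1.07, SE 0.17, adjusted p = 0.00233), and this call held without any 1 array. In B6-ChrXMSM males Kit was 1.42-fold higher at 7 dpp than at 5 dpp (0.51, SE 0.12, adjusted p = 0.0400), which is under the 1.5-fold bound. The interaction of that strain was -0.61 (SE 0.15, adjusted p = 0.0470) and lost its call in 10 of the 12 fits that left out 1 array, with adjusted p between 0.0563 and 0.111 in those 10.

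In MSM males Kit was already at 6.33, 6.17 and 6.38 at 5 dpp, above every B6 male of that age (1.97-fold, 0.98, SE 0.08, adjusted p = 2.51e-05). At 7 dpp MSM males had 6.46, 6.52 and 6.44, overlapping the B6 males, and the difference was 0.03 (SE 0.06, adjusted p = 0.667). The age difference within MSM was 0.18 (adjusted p = 0.0850). XS39-tel males had Kit at 5.34, 5.25 and 5.86 at 5 dpp, a difference from B6 of 0.17 (SE 0.16, adjusted p = 0.618), while 3 of 5 tested markers of differentiating spermatogonia were lower in the same comparison (median -0.65).

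F1 males spread widely in Kit at 7 dpp. The 8 males had a lowest, median and highest log2 signal of 5.61, 6.08 and 6.68, against 4.96 to 5.49 in B6-ChrXTMSM males and 6.34 to 6.50 in B6 males, so every F1 male lay above the B6-ChrXTMSM males and the F1 range took in the B6 range. The F1 mean exceeded that of B6-ChrXTMSM by 0.81 (SE 0.20, 95% interval 0.39 to 1.23), but the adjusted p was 0.0676. Without F1 replicate 3 or 4 it was 0.0432 or 0.0252, with differences of 0.86 and 0.88. Over all fits that left out 1 array it ran from 0.0252 to 0.348. Against B6 the F1 difference was -0.34 (SE 0.18, adjusted p = 0.250, 95% interval -0.73 to 0.05). F1 replicates 5 to 8 of 7 dpp had a raised actin control difference, given below. With F1 replicates 1 to 4 alone Kit was not called against B6-ChrXTMSM or B6 either. The part of that control difference in the F1 Kit values was not tested. The germ cell markers had a median difference of -0.25 in F1 against B6 testes at 7 dpp, with 0 of 5 lower. At 5 dpp the 3 F1 males had Kit at 5.46, 5.39 and 5.42 (difference from B6 0.11, adjusted p = 0.440), although the per-array mean of the germ cell markers was 5.02 to 5.17 in F1 against 5.66 to 5.85 in B6 testes. From the lowest, the Kit means at 7 dpp ran in the order B6-ChrXMSM, B6-ChrXTMSM, F1, B6 and MSM. The ranges overlapped between B6-ChrXMSM and B6-ChrXTMSM, between F1 and B6 and between B6 and MSM males, and only B6-ChrXTMSM and F1 as neighbours in this order did not.

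A second Kit probe set, 1415900_a_at, stayed under the expression filter in all 11 groups and was not tested. Its 7 dpp means were 1.78 in B6-ChrXMSM, 1.70 in B6-ChrXTMSM, 2.17 in F1, 2.43 in MSM and 2.79 in B6 testes.

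Kitl, the ligand made by Sertoli cells, was not called in either X chromosome strain. At 7 dpp its main probe set, 1415855_at, gave 9.69, 9.81 and 9.73 in B6-ChrXMSM males and 9.87, 9.79 and 9.78 in B6-ChrXTMSM males, against 9.62, 9.50 and 9.67 in B6 males. Males of both strains lay above all B6 males, by 0.15 in B6-ChrXMSM (adjusted p = 0.102) and 0.22 in B6-ChrXTMSM testes (adjusted p = 0.0240), far under 1.5-fold. In B6-ChrXTMSM testes the other probe sets had the opposite sign. Probe set 1426152_a_at differed by -0.37 (adjusted p = 0.0205), without overlap and under the bound. Probe set 1415854_at differed by -0.40 (adjusted p = 0.105) and 1448117_at by -0.05 (adjusted p = 0.506). In B6-ChrXMSM testes they differed by 0.25, 0.20 and 0.09, with no adjusted p under 0.05. In MSM males Kitl was lower at both ages, with 8.88, 8.66 and 8.87 against 9.38, 9.43 and 9.45 in B6 males at 5 dpp (1.54-fold, -0.62, adjusted p = 0.000203) and 9.08, 8.97 and 9.0 at 7 dpp (-0.58, SE 0.07, adjusted p = 0.000174, 1.49-fold and so just under the bound). Both values lie near the bound: without MSM replicate 2 the 5 dpp difference was -0.55 and would not be called, and without B6 replicate 2 or MSM replicate 1 the 7 dpp difference was -0.63 or -0.61 and would be. The other 3 Kitl probe sets were also lower in MSM at both ages, by 0.62 to 1.31 on the log2 scale, and all 3 were called. Whether MSM sequence differs under these probes was not tested.

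The 4 Kitl probe sets also disagreed in F1 and XS39-tel testes. In F1 males of 7 dpp probe set 1415854_at had a lowest, median and highest log2 signal of 2.76, 3.40 and 4.06, against 4.33, 4.60 and 4.75 in B6 males (2.20-fold lower, -1.14, SE 0.29, adjusted p = 0.0452). Probe set 1426152_a_at had 5.61, 6.35 and 7.29 in the F1 males, against 7.39, 7.59 and 7.78 in B6 males (2.26-fold lower, -1.17, SE 0.30, adjusted p = 0.0476). Neither overlapped B6, while 1415855_at had 9.55, 9.74 and 9.87 in the F1 males, among and above the B6 values, with a difference of 0.13 (adjusted p = 0.315). In XS39-tel males of 5 dpp 1415854_at had 2.35, 2.78 and 2.21, against 4.56, 4.11 and 4.74 in B6 males (4.06-fold lower, -2.02, SE 0.20, adjusted p = 0.0198). Probe set 1426152_a_at had 6.20, 6.14 and 5.15 in XS39-tel males against 7.31, 7.16 and 7.44 in B6 males (-1.47, adjusted p = 0.0674), and 1415855_at differed by 0.18 (adjusted p = 0.269). Again the groups did not overlap for the first 2 of these probe sets. Probe set 1448117_at differed from B6 by -0.41 in F1 males of 7 dpp (SE 0.08, adjusted p = 0.0211), without overlap and under 1.5-fold. In XS39-tel males of 5 dpp it differed by -0.18 (adjusted p = 0.463) and overlapped B6.

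Leaving out 1 array at a time, 1415854_at kept its F1 call in 3 of 11 fits (adjusted p 0.0227 to 0.195, differences -1.25 to -1.04) and 1426152_a_at in 2 of 11 (0.0167 to 0.199). In XS39-tel testes 1415854_at kept its call in 2 of 6 fits (0.0102 to 0.150), those without XS39-tel replicate 2 or 3. The actin control probe sets of the array gave a log2 difference between the 3′ and 5′ ends of the transcript of 1.51, 1.63, 1.62 and 1.66 in F1 replicates 5 to 8 at 7 dpp, against 0.90 to 1.38 on all other arrays, including 0.98, 0.90 and 1.15 in XS39-tel males. With F1 replicates 1 to 4 alone the differences were -0.81 for 1415854_at (adjusted p = 0.153) and -0.72 for 1426152_a_at (adjusted p = 0.132). The part of RNA integrity or of the transcript end read by each probe set was not tested.

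**Figure D2:**
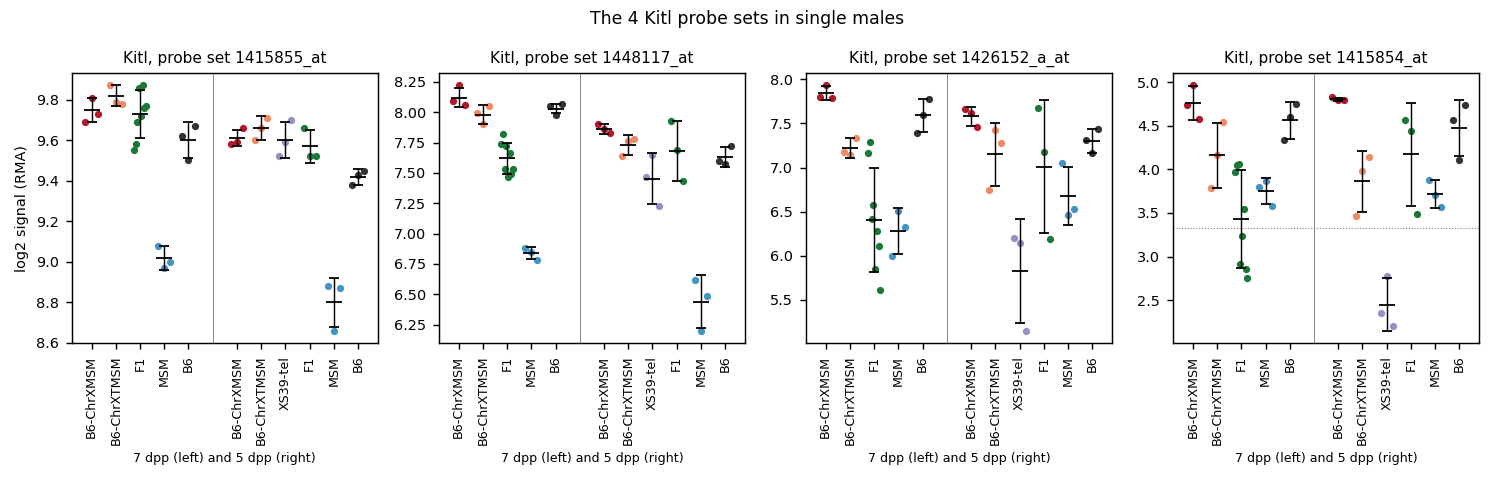
Log2 signal of the 4 Kitl probe sets in each male, with points for males, bars for the mean ± SD, and the 7 dpp groups left of the 5 dpp groups. Probe sets 1415854_at and 1426152_a_at lie below B6 in F1 males at 7 dpp and in XS39-tel males at 5 dpp, while 1415855_at does not. Probe set 1448117_at lies below B6 in F1 males at 7 dpp and overlaps it in XS39-tel males. All 4 are lower in MSM than in B6 males.

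Gdnf, the growth factor that sustains spermatogonial stem cells, stood on the opposite side of B6 from Kit. At 7 dpp B6-ChrXMSM males had 5.92, 6.09 and 5.95 and B6-ChrXTMSM males 5.98, 5.76 and 5.94, against 5.42, 5.50 and 5.29 in B6 males. All 6 males of the X chromosome strains exceeded all 3 B6 males. The differences were 0.58 in B6-ChrXMSM (SE 0.07, adjusted p = 0.000629) and 0.49 in B6-ChrXTMSM testes (SE 0.08, adjusted p = 0.00236, 1.40-fold), past the adjusted p but under 1.5-fold, the first by a narrow margin: without B6-ChrXMSM replicate 1 or 3 or B6 replicate 1 or 2 it was 0.62, 0.60, 0.59 and 0.63 and would be called. At 5 dpp Gdnf stood at 6.17, 5.96 and 5.93 in B6-ChrXMSM and 5.82, 5.79 and 5.97 in B6-ChrXTMSM males, against 5.75, 5.83 and 5.92 in B6 males. The first strain lay just above the B6 males (0.19, adjusted p = 0.219) and the second overlapped them.

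With age, Gdnf was 1.35-fold lower in B6 males at 7 dpp than at 5 dpp (-0.43, SE 0.07, adjusted p = 0.00200), which is under the bound, while the differences were -0.04 in B6-ChrXMSM (adjusted p = 0.819) and 0.03 in B6-ChrXTMSM males (adjusted p = 0.805). The interaction with age was 0.47 for B6-ChrXTMSM (SE 0.11, adjusted p = 0.0122), also under 1.5-fold, and 0.40 for B6-ChrXMSM (adjusted p = 0.0707). F1 males had a lowest, median and highest Gdnf signal of 4.89, 5.35 and 5.89 at 7 dpp, against 5.97, 6.05 and 6.08 at 5 dpp, without overlap, and Gdnf fell 1.56-fold (-0.64, SE 0.16, adjusted p = 0.0175). Without F1 5 dpp replicate 2 or 3 the adjusted p was 0.0784 or 0.0770, and without F1 7 dpp replicate 5 the difference was -0.57, under the fold bound. With F1 7 dpp replicates 1 to 4 alone, the males without the raised actin control difference, it was -0.51 (adjusted p = 0.0865) and not called. F1 and B6 males of 7 dpp differed by -0.01 (SE 0.16, adjusted p = 0.983). MSM males had less Gdnf signal than B6 males, 4.88, 5.11 and 5.15 at 7 dpp (-0.36, adjusted p = 0.00834) and 5.55, 5.40 and 5.17 at 5 dpp (-0.46, adjusted p = 0.00464), under 1.5-fold at both ages.

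The GDNF receptors showed another pattern, in which MSM stood apart. Ret, the signalling subunit, had log2 signals of 4.60, 4.50 and 4.54 in MSM males against 3.12, 3.07 and 3.12 in B6 males at 7 dpp (2.72-fold, 1.44, SE 0.06, adjusted p = 5.41e-07). At 5 dpp MSM males had 5.16, 4.77 and 5.18, against 3.33, 3.20 and 3.15 in B6 males (3.50-fold, 1.81, SE 0.12, adjusted p = 7.80e-06). These MSM males had the raised Gapdh control difference, and its part in the 5 dpp values was not tested. The B6 means lay under the filter at both ages, as Ret passed it in 7 of 11 groups. The second probe set, 1421359_at, was also higher in MSM, by 1.23 at 5 dpp (adjusted p = 2.21e-05) and by 0.57 at 7 dpp (adjusted p = 0.00373, under the bound). In B6-ChrXMSM, B6-ChrXTMSM and F1 testes of 7 dpp Ret averaged 3.52 ± 0.45 (SD, n = 3), 3.40 ± 0.23 (SD, n = 3) and 3.62 ± 0.25 (SD, n = 8). The differences from B6 were 0.41 (adjusted p = 0.110), 0.30 (adjusted p = 0.0512) and 0.52 (adjusted p = 0.0476, under the bound). Without F1 replicate 4 the F1 difference was 0.59 (adjusted p = 0.00960), and without B6-ChrXMSM replicate 2 that of B6-ChrXMSM was 0.66 (adjusted p = 0.00133), and each would be called. Over all fits that left out 1 array the adjusted p reached 0.184 in F1 and 0.308 in B6-ChrXMSM. Probe set 1421359_at lay under the filter in these groups and in B6 at 7 dpp and was not tested there. Its means were 2.48 in B6-ChrXMSM and 2.61 in B6-ChrXTMSM against 2.85 in B6 testes. Both strains lay below B6 without overlap, the opposite side from the main probe set. In F1 testes its mean was 3.08.

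Gfra1, the co-receptor that binds GDNF, was also higher in MSM. Its signals were 4.91, 4.90 and 5.04 in MSM against 4.36, 4.23 and 4.18 in B6 males at 7 dpp (1.62-fold, 0.70, SE 0.07, adjusted p = 8.77e-05). At 5 dpp they were 5.30, 5.24 and 5.14 in MSM against 4.49, 4.67 and 4.49 in B6 males (1.60-fold, 0.68, SE 0.08, adjusted p = 0.000135). MSM and B6 males did not overlap at either age. B6-ChrXMSM males had 4.37, 3.80 and 4.03 and B6-ChrXTMSM males 3.89, 4.38 and 4.26 at 7 dpp, which overlapped B6, with differences of -0.19 (adjusted p = 0.278) and -0.08 (adjusted p = 0.629). At 5 dpp B6-ChrXMSM males had 3.67, 4.17 and 4.12, below every B6 male, but the difference of -0.57 (SE 0.13) had an adjusted p of 0.0564. The 8 F1 males of 7 dpp had 4.04, 4.38 and 4.70 as lowest, median and highest. Beside these values, 3 of 6 tested markers of undifferentiated spermatogonia were higher in MSM at each age (median differences 0.57 at 7 dpp and 0.68 at 5 dpp), where 17.3% and 28.2% of all probe sets were called, and 3 of 5 were lower in B6-ChrXMSM (median -1.26) and in B6-ChrXTMSM testes (median -1.14) at 7 dpp.

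Etv5, a target of GDNF and FGF signals that is also made in Sertoli cells, lay lowest in B6 at 7 dpp. Signals were 6.16, 6.22 and 5.91 in B6-ChrXMSM, 5.95, 5.98 and 6.04 in B6-ChrXTMSM, 5.84, 5.97 and 6.26 (lowest, median and highest of 8) in F1 and 5.70, 5.95 and 5.96 in MSM males, against 5.45, 5.63 and 5.59 in B6 males. No male of another strain fell to the highest B6 male. The differences from B6 were 0.54 (adjusted p = 0.00228), 0.44 (adjusted p = 0.00161), 0.46 (adjusted p = 0.0204) and 0.32 (adjusted p = 0.0142), each past the adjusted p and under 1.5-fold. B6 Etv5 was lower at 7 dpp, at the values above, than at 5 dpp, with 6.10, 6.06 and 5.93 (-0.47, SE 0.07, adjusted p = 0.00120), which is under 1.5-fold. The age differences were -0.32 in MSM (adjusted p = 0.0175), -0.31 in B6-ChrXTMSM (adjusted p = 0.0516), -0.03 in B6-ChrXMSM (adjusted p = 0.899) and -0.02 in F1 males (adjusted p = 0.901). The interactions with age were 0.45 for B6-ChrXMSM (adjusted p = 0.0931) and 0.16 for B6-ChrXTMSM (adjusted p = 0.286), so a difference between strains in the age change was not shown.

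Cxcl12, the chemokine ligand of CXCR4, was the member called higher in both X chromosome strains. At 7 dpp B6-ChrXMSM males had 8.60, 8.57 and 8.60 and B6-ChrXTMSM males 8.62, 8.61 and 8.67, against 7.90, 8.05 and 7.94 in B6 males. The 6 values lay close together and above all B6 males. The fold changes were 1.54 (0.62, SE 0.06, adjusted p = 0.000164) and 1.59 (0.67, SE 0.06, adjusted p = 0.000263), and neither call was lost when any 1 array was left out. Both were lost with the mean of the 3 Cxcl12 probe sets, at 0.36 and 0.37. That mean takes in 1439084_at, which lay under the filter and was not tested. Its 7 dpp means were 1.45 in B6-ChrXMSM, 1.34 in B6-ChrXTMSM and 1.38 in B6 testes. The 8 Sertoli markers of the same males had median differences of 0.18 and 0.13, with 0 called higher and 1 lower (Cldn11, -0.80 and -0.62). Amh (0.50 and 0.45), Gata4 (0.40 and 0.26), Dhh (0.34 and 0.29) and Fshr (0.44 and 0.47) passed the adjusted p in both strains, under 1.5-fold. Sox9, Wt1 and Clu did not pass. Of the other somatic lists, the adipose gene Fabp4, the 1 of 5 tested, was higher in both strains (2.51 and 2.71), the macrophage gene Lyz2 in B6-ChrXMSM (0.68, 1 of 4 tested), and the Leydig cell genes Cyp11a1 and Hsd3b1 in B6-ChrXTMSM (0.72 and 0.66, 2 of 4 tested), while the peritubular gene Cnn1 was lower in B6-ChrXMSM (-0.60, 1 of 5 tested). The endothelial genes Emcn (0.52 and 0.55) and Cdh5 (0.28 and 0.38) passed the adjusted p in both strains under 1.5-fold, while Kdr and Tek did not. The peritubular genes Myh11 (-0.53 and -0.45) and Acta2 (-0.25 and -0.15) also passed under the bound, on the lower side. The macrophage genes were mixed. Cd68 passed under the bound in both strains (0.33 and 0.48) and Lyz2 in B6-ChrXTMSM (0.50). Mrc1 passed under the bound in B6-ChrXMSM on the lower side (-0.25) and not in B6-ChrXTMSM (0.04). Csf1r did not pass in either strain (-0.16 and 0.07). The part of somatic cell numbers in the Cxcl12 and Gdnf differences was not tested. The 8 F1 males had 8.12, 8.38 and 8.49 as lowest, median and highest, above all B6 males and below all males of the X chromosome strains. The F1 differences were 0.35 from B6 (SE 0.09, adjusted p = 0.0518) and -0.32 from B6-ChrXTMSM (adjusted p = 0.0891), so neither passed. MSM males had 8.26, 8.39 and 8.37 at 7 dpp (0.37, adjusted p = 0.00175) and 8.97, 9.32 and 8.98 at 5 dpp (0.44, adjusted p = 0.00479), under 1.5-fold.

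At 5 dpp Cxcl12 was 9.02, 8.78 and 8.88 in B6-ChrXMSM, 8.77, 8.79 and 8.77 in B6-ChrXTMSM and 8.67, 8.67 and 8.61 in B6 males. Neither X chromosome strain overlapped B6, but their differences of 0.24 (adjusted p = 0.0954) and 0.13 (adjusted p = 0.178) did not pass. Cxcl12 fell with age in B6 (1.61-fold, -0.68, SE 0.06, adjusted p = 0.000113), F1 (1.51-fold, -0.60, SE 0.11, adjusted p = 0.00577) and MSM males (1.69-fold, -0.75, SE 0.10, adjusted p = 0.000536). The F1 fold change was close to the bound and went under it without F1 7 dpp replicate 1, 2 or 5 (-0.57 each) or F1 5 dpp replicate 2 or 3 (-0.51 and -0.55). In B6-ChrXMSM and B6-ChrXTMSM males the age differences were -0.31 (adjusted p = 0.0396, under the bound) and -0.14 (adjusted p = 0.0936). The interactions were 0.38 (SE 0.09, adjusted p = 0.0428) and 0.54 (SE 0.07, adjusted p = 0.000776), both past the adjusted p and under 1.5-fold. A second probe set, 1417574_at, was higher by 0.39 (adjusted p = 0.00157) in B6-ChrXMSM and by 0.48 (adjusted p = 0.000674) in B6-ChrXTMSM testes at 7 dpp, under the bound, but differed by -0.39 in MSM (adjusted p = 0.0481), the opposite sign to the main probe set there.

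The receptor Cxcr4, whose gene is on chromosome 1, and the ligand Fgf2 gave signals under the filter in all 11 groups and were not tested. Group means of Cxcr4 ran from 1.25 in B6-ChrXMSM at 5 dpp to 2.48 in MSM at 5 dpp, and those of Fgf2 from 0.42 in B6-ChrXMSM at 5 dpp to 0.76 in MSM at 5 dpp. Cxcl12 and Cxcr4 could therefore not be read together as ligand and receptor on this array. Csf1, the growth factor of macrophages and other cells with CSF1R, lay between 4.26 and 5.01 in all 38 males. At 7 dpp it had 4.58, 4.51 and 4.71 in B6-ChrXMSM and 4.69, 4.47 and 4.40 in B6-ChrXTMSM, against 4.70, 4.76 and 4.78 in B6 males, with differences of -0.15 (adjusted p = 0.106) and -0.23 (adjusted p = 0.0453, under the bound). B6-ChrXTMSM males lay below all B6 males and B6-ChrXMSM males overlapped them. In MSM the main Csf1 probe set differed from B6 by -0.36 at 5 dpp (adjusted p = 0.00927), while 1448914_a_at was higher by 0.79 (adjusted p = 0.000199), with 3.58, 3.56 and 3.48 in MSM against 2.53, 2.82 and 2.89 in B6 males, so the direction of Csf1 in MSM depended on the probe set. Csf1r, the receptor, differed by -0.47 in MSM at 7 dpp (adjusted p = 0.000956, under the bound) and was lower by 0.89 at 5 dpp.

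**Figure D3:**
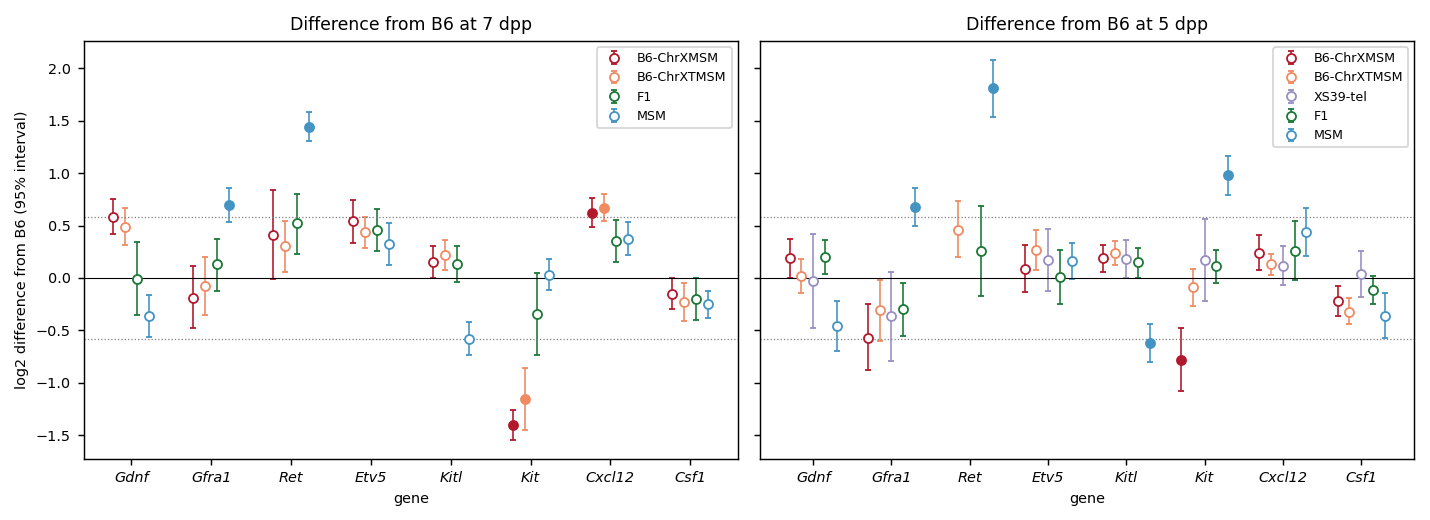
Log2 difference from B6 of each tested gene at 7 dpp (left) and 5 dpp (right), with 95% intervals. Filled points were called, open points were not, and dotted lines mark 1.5-fold. At 7 dpp Kit lies near -1.40 and -1.15 in the X chromosome strains and Cxcl12 near 0.62 and 0.67, and Ret and Gfra1 are called in MSM.

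The counts over the set were as follows, each beside the share of all tested probe sets that was called. At 7 dpp 2 of 8 tested genes (Kit lower, Cxcl12 higher) were called in B6-ChrXMSM against B6, where 6.08% of probe sets were called, and the same 2 of 8 in B6-ChrXTMSM, where 5.72% were. The median difference of the 8 genes was 0.28 and 0.26, beside 0.01 and 0.02 over all probe sets tested. In F1 against B6 0 of 8 genes were called and 1.72% of probe sets, and in MSM 2 of 8 (Ret and Gfra1 higher) and 17.3%. At 5 dpp the counts were 1 of 7 (Kit lower) beside 1.67% in B6-ChrXMSM, 0 of 8 beside 0.301% in B6-ChrXTMSM, 0 of 7 beside 0.649% in XS39-tel, 0 of 8 beside 0.538% in F1 and 4 of 8 (Ret, Gfra1 and Kit higher, Kitl lower) beside 28.2% in MSM. For MSM at 7 dpp, 2 of 8 genes stand beside a high background. At an unadjusted p under 0.05 limma gave 3 of 8 genes in F1 against B6 at 7 dpp (Cxcl12, Etv5 and Ret), beside 26% of all probe sets. At 5 dpp it gave 6 of 8 in B6-ChrXTMSM beside 20.3%, 1 of 7 in XS39-tel (Kitl) beside 18.3% and 2 of 8 in F1 (Gdnf and Gfra1) beside 16.5%. F1 against B6-ChrXTMSM had 0 of 8 called at both ages, beside 0.318% of probe sets at 7 dpp and 0.0481% at 5 dpp, and 3 of 8 with an unadjusted p under 0.05 at each, beside 20.4% and 10.8% of all probe sets.

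Between ages, 7 against 5 dpp, 2 of 7 genes were called in B6 (Kit higher, Cxcl12 lower) beside 8.33% of probe sets, 0 of 8 in B6-ChrXMSM beside 2.48%, 0 of 8 in B6-ChrXTMSM beside 0.839%, 3 of 8 in F1 (Kit higher, Gdnf and Cxcl12 lower) beside 5.57%, and 1 of 8 in MSM (Cxcl12 lower) beside 14.7%. At an unadjusted p under 0.05 there were 2 of 8 in B6-ChrXMSM (Kit and Cxcl12) beside 27% of all probe sets and 3 of 8 in B6-ChrXTMSM (Cxcl12, Etv5 and Kitl) beside 28.2%. In F1 males Kit was 1.59-fold higher at 7 dpp (0.67, SE 0.18, adjusted p = 0.0241). Without F1 5 dpp replicate 1, 2 or 3 its adjusted p was 0.0517, 0.0976 and 0.0881, and without F1 7 dpp replicate 5 the difference was 0.58, under the bound. With F1 7 dpp replicates 1 to 4 alone it was 0.56 (adjusted p = 0.0852). The interaction of strain and age called 1 of 8 genes (Kit) in B6-ChrXMSM beside 1.40% of probe sets and 1 of 8 (Kit) in B6-ChrXTMSM beside 5.18%.

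Partners of these genes were read from lists of the same pathways, chosen by name with earlier results of these data known. Among 9 tested regulators and signalling genes of KIT in B6-ChrXMSM testes at 7 dpp, 0 were higher and 4 lower: Sohlh1 (-1.66, adjusted p = 4.14e-05) and Sohlh2 (-0.72, adjusted p = 0.00123), transcription factors that drive Kit in differentiating spermatogonia, Stra8 (-2.24, adjusted p = 2.70e-05), the retinoic acid target needed for meiotic entry, and Zbtb16 (-1.26, adjusted p = 3.49e-05), a repressor of Kit in undifferentiated spermatogonia. The same 4 of 10 were lower in B6-ChrXTMSM testes (-1.49, -0.88, -2.25 and -1.14 in that order). In F1 testes 0 of 9 were called, with Sohlh1 at -0.53 (adjusted p = 0.142) and Stra8 at -0.78 (adjusted p = 0.0946). The list medians were -0.41, -0.24 and -0.11, beside 0.01, 0.02 and 0.01 over all probe sets. In B6 4 of 9 were higher and 1 lower at 7 than at 5 dpp, including Stra8 (1.71), Sohlh1 (1.48), Sohlh2 (0.84) and Zbtb16 (0.81). All 4 are also on the spermatogonial marker lists above, and they are therefore not separate from them.

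Of the GDNF family and RET signalling genes, 0 of 6 were called in B6-ChrXMSM or B6-ChrXTMSM testes at 7 dpp. The paralogous receptor Gfra2, which binds neurturin, was higher in F1 (0.77, adjusted p = 0.0322) and in MSM testes (3.06, adjusted p = 7.38e-08), where Gfra3 was also higher (0.63). In the X chromosome strains Gfra2 differed by 0.51 (adjusted p = 0.0233) and 0.55 (adjusted p = 0.0269), under the bound. Genes that respond to GDNF in spermatogonia were mixed. Lhx1 was higher (0.64, adjusted p = 0.00232) and Pou3f1 lower (-0.71, adjusted p = 0.000341) among 6 tested in B6-ChrXMSM, Pou3f1 alone was called in B6-ChrXTMSM (-0.99, adjusted p = 0.00154), and Lhx1 (1.02), Id4 (1.28) and Egr2 (0.80) were higher in MSM. Ackr3, the other receptor of CXCL12, differed from B6 by 0.02 and 0.06 in the X chromosome strains and by 0.41 in F1 (adjusted p = 0.0200, under the bound).

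Of 10 tested genes of FGF signalling, the ligand Fgf18 was higher and the receptor Fgfr3 lower in both B6-ChrXMSM (0.76 and -0.77) and B6-ChrXTMSM testes (0.75 and -0.59) at 7 dpp, none was called in F1, and Fgf18 (0.63) and Fgfr2 (0.66) were higher in MSM. Of the other niche factors, Inhba, a subunit of activin, was higher (0.65 in B6-ChrXMSM and 0.72 in B6-ChrXTMSM) and Hey1, a Notch target, was lower (-0.77 and -0.67), out of 12 and 13 tested. The insulin-like growth factor Igf1 was higher in MSM (0.81). With age in B6, Fgf18 (-0.80), Inhba (-1.18) and Igf1 (-0.98) were lower at 7 than at 5 dpp.

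Within the 8 F1 males of 7 dpp, Kit and Gdnf ran in opposite directions. Kit was lowest, at 5.61 and 5.78, in replicates 4 and 3, where Gdnf was 5.66 and 5.89, and highest, at 6.68, in replicate 5, where Gdnf was 4.89. Over the 8 males Pearson's r was -0.91 (exact permutation p = 0.00233, adjusted over 7 relations 0.0163) and Spearman's rho -0.9 (exact permutation p = 0.00456, adjusted 0.0319), two-sided. Without the 2 males farthest from the median of Kit r was -0.85. Cxcl12 gave r = -0.79 (exact permutation p = 0.0249, adjusted 0.0685) and rho = -0.81 (exact permutation p = 0.0218, adjusted 0.0508), and r = -0.74 without the 2 farthest males. Gfra1 gave r = 0.74 (exact permutation p = 0.0357, adjusted 0.0685) and 0.61 without them. Ret gave r = 0.71 (exact permutation p = 0.0391, adjusted 0.0685) and -0.18 without them, so that relation rests on those 2 males. Kitl, Csf1 and Etv5 gave r of -0.51, -0.28 and -0.43 (exact permutation p = 0.202, 0.498 and 0.281). The actin control splits these males into replicates 1 to 4 and 5 to 8, and 4 males are too few for a value within each. The permutation treats the 8 males as exchangeable and takes no account of that split. The germ cell marker mean also spread over these males, as given above, and the part of cell numbers in these relations was not tested. How many genes outside the set track Kit as closely over the 8 males was not tested either.

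**Figure D4:**
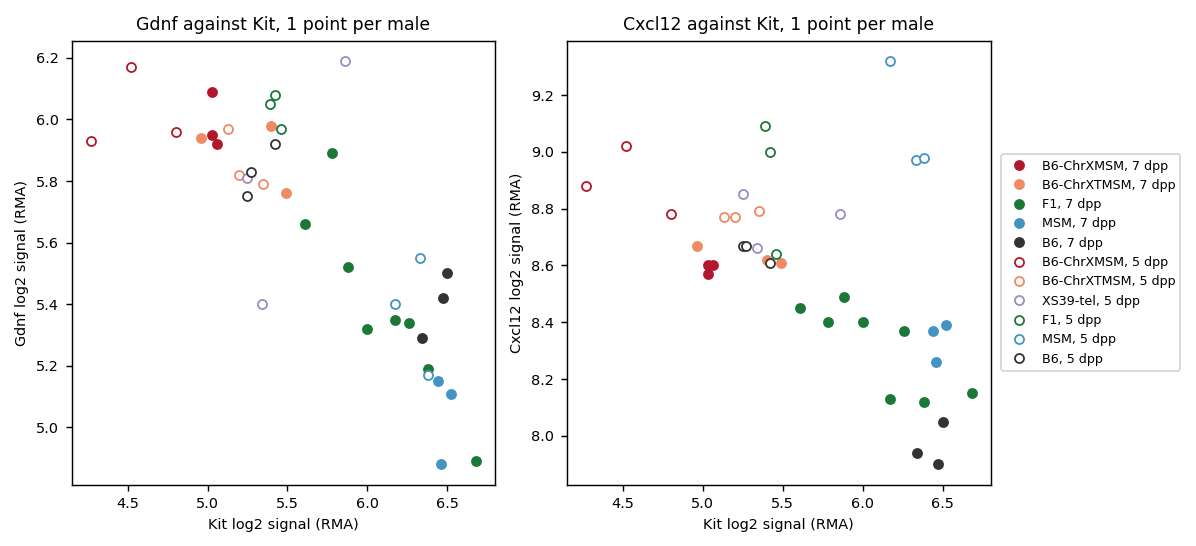
Log2 signal of Gdnf (left) and Cxcl12 (right) against that of Kit, with 1 point per male, coloured by strain, filled at 7 dpp and open at 5 dpp. Among the 8 F1 males of 7 dpp Gdnf is lower where Kit is higher (r = -0.91).

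Over the 11 group means, which share their normalization and the strains at both ages, Gdnf and Kit had r = -0.92, Gfra1 and Ret 0.89, Gfra1 and Kitl -0.93, Ret and Kitl -0.84 and Cxcl12 and Etv5 0.83, whereas the ligand and receptor pair Kitl and Kit had -0.56 and Gdnf and Gfra1 -0.73. Among 10579 genes, the patterns most like that of Kit were those of Ints1 (r = 0.978), Ccdc88c (0.971) and Apbb1 (0.969). Those most like Gdnf were Zfp618 (0.979), Triqk (0.977) and BC034090 (0.968), and those most like Cxcl12 were Glis2 (0.97), Tspan15 (0.968) and Itga4 (0.967). For Gfra1 they were Bnc2 (0.97), Dusp10 (0.963) and Tubg1 (0.959), for Ret Pemt (0.971), Susd6 (0.971) and Tiam1 (0.969), and for Kitl Ccdc122 (0.986), Ngrn (0.986) and Prps1l3 (0.983). Etv5 and Csf1 had weaker likenesses, led by Pcm1 (0.922) and Xpnpep3 (0.848).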

How the data were processed

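Testis RNA of 38 males was hybridised to Affymetrix whole-genome mouse expression arrays, 1 per male. The values used are the log2 signals deposited by the authors, made from scanner files by RMA (background correction, quantile normalization and summary of each probe set) in GeneSpring GX, whose version is not given in the sources used here. RMA gives every array nearly the same distribution, so differences are relative to the whole array; precision is limited by how many arrays each group has. Groups were taken from the sample labels. Nothing in the labels says whether males of 1 group came from separate litters, so p-values measure the spread between males.

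Gene names came from the platform annotation: of 45101 probe sets 34958 had 1 gene symbol, 932 several and 9211 none, and 34724 had 1 gene placed on a chromosome. Each comparison was a limma fit (lmFit and eBayes, version 3.58.1 in R 4.3.3) of the compared groups, with p-values adjusted by Benjamini-Hochberg over all probe sets that passed a mean signal of 10 in at least 1 group. Probe sets that the study lists as polymorphic between the strains were left out for the X chromosome (236 of 1127) and, with F1 or MSM, for chromosome 1 (653 of 2148). No probe set of the 10 genes is listed there, and other chromosomes are not covered by that list, so probe mismatches in MSM were not tested. Of the 24 probe sets 9 stayed under the filter in every group. Calls needed an adjusted p under 0.05 and 1.5-fold. Where a gene had several probe sets, that with the strongest mean signal over the 38 arrays stood for it. Named genes were all 10 members, pathway genes called against B6 at 7 dpp or partners of a member, and the 3 genes of most similar group means. The members, pathway and marker lists were chosen with earlier results of these data known. Relations to Kit among F1 males were tested with exact permutation of pairings (scipy 1.17.1). The fit was tested on simulated data. The 10 alternatives planned, and 1 chosen after seeing the data, are given in the closing section.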

Additional observations from a re-analysis of the deposited data

Results flagged for a closer look

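The difference in Kit between B6-ChrXTMSM and B6 males changed with age by -1.07 on the log2 scale, and that between B6-ChrXMSM and B6 males by -0.61, both by an interaction test. The first kept its call without any 1 array and the second lost it in 10 of 12 such fits.

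In a check for a single male far from its group, 24 probe sets were examined in the 8 F1 males of 7 dpp and 2 were past Dixon's 95% critical value for 8 samples, where chance gives about 1 in 20. For the Kit probe set 1415900_a_at the gap of replicate 1 (3.1, against 1.65 to 2.28 in the other males) was 0.560 of the range. For the Csf1 probe set 1448914_a_at the gap of replicate 3 (2.12, against 2.52 to 2.74 in the other males) was 0.641 of the range. Both lie under the expression filter in that group and enter no test of it.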

How the results depend on the processing

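Calls of Kit at 7 dpp held in every alternative run (differences -1.45 to -1.20 in B6-ChrXMSM and -1.26 to -0.99 in B6-ChrXTMSM). Counts of the 10 genes called moved by over 1.5 times as follows. The totals over all probe sets moved with the settings as well, as given at the end. These counts are therefore not read as results about the 10 genes. Without the fold bound they were 4, 6, 2 and 7 in B6-ChrXMSM, B6-ChrXTMSM, F1 and MSM against B6 at 7 dpp and 7 in MSM at 5 dpp, 6, 2 and 5 between ages in B6, B6-ChrXMSM and MSM, and 2 and 3 for the interactions of B6-ChrXMSM and B6-ChrXTMSM. With the mean of all probe sets of a gene they were 0 in B6-ChrXMSM at 5 dpp, 1 each in B6-ChrXMSM, B6-ChrXTMSM and F1 at 7 dpp, and 1 each between ages in B6 and F1. The calls lost at 7 dpp are Cxcl12 (0.36 and 0.37), and the F1 call is Kitl, at -0.65 (adjusted p = 0.0289) against 0.13 for its main probe set, as the mean takes in the probe sets that were lower. A filter at a signal of 50 gave 0 in B6-ChrXMSM at 5 dpp, 2 in MSM at 5 dpp and 0 in MSM at 7 dpp, and no filter gave 0 in B6-ChrXMSM at 5 dpp and 0 for its interaction, and added Cxcr4 in MSM at 5 dpp. One fit over all arrays gave 1 for F1 against B6-ChrXTMSM at 7 dpp (Kit, adjusted p = 0.00123) and 0 for the B6-ChrXMSM interaction. Leaving out 1 array gave 0 to 1 in B6-ChrXMSM at 5 dpp, 2 to 4 at 7 dpp, 0 to 1 for F1 against B6 and against B6-ChrXTMSM at 7 dpp, 0 to 1, 0 to 3 and 1 to 2 between ages in B6-ChrXMSM, F1 and MSM, and 0 to 1 for the B6-ChrXMSM interaction. The 4 at 7 dpp came without B6-ChrXMSM replicate 3, and the 2 in MSM without its 5 dpp replicate 2. Leaving out 1 array also gave 3 to 4 in MSM at 5 dpp and 2 to 3 at 7 dpp, in each case by Kitl. F1 replicates 1 to 4 alone, chosen after seeing the data, gave 1 between ages (Cxcl12), without Gdnf (-0.51, adjusted p = 0.0865) and Kit (0.56, adjusted p = 0.0852). Subtracting array medians added Gdnf in B6-ChrXMSM (0.63) and Kitl in MSM (-0.62) at 7 dpp and removed Cxcl12 in F1 between ages (-0.58). In MSM the mean of all probe sets added Kitl at 7 dpp (-0.97), and Gfra1 was then under the filter. It also put Ret (-0.61) in place of Cxcl12 between ages. Replicate numbers did not pair males (48 pairs, r = -0.35 to 0.35). With the replicate block F1 against B6-ChrXTMSM had 1 call at 7 dpp (Kit, 0.82, adjusted p = 0.0300), the B6-ChrXMSM interaction 0 (Kit, adjusted p = 0.0698), and F1 between ages lost Gdnf (-0.56, adjusted p = 0.0382). Over all probe sets, settings other than leaving out arrays gave 381 to 6864 calls in B6-ChrXMSM at 7 dpp (1041 of 17109 as reported). They gave 337 to 7190 in B6-ChrXTMSM (979 of 17116), 42 to 737 in F1 (288) and 966 to 10057 in MSM at 7 dpp (2997 of 17368). At 5 dpp they gave 1927 to 11634 in MSM (4949 of 17524) and 0 to 348 in XS39-tel (111). Between ages they gave 567 to 8122 in B6 (1434), 155 to 1596 in B6-ChrXMSM (420) and 836 to 8758 in MSM (2537). Apart from the causes named, the cause was not tested. Genes with signals near the filter, Ret in B6 among them, are the least precisely measured.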
